A study of Danio rerio with 6 samples.

Results

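The potassium, sodium and calcium channel genes of the zebrafish were taken as every gene identifier of the deposited count table whose symbol begins with kcn and a letter, with scn and a number, or with cacna, cacnb or cacng. The rule found 193 of 32520 identifiers, of which 129 are potassium channel, 14 sodium channel and 50 calcium channel genes. It uses names alone and no measured value. The set is wider than voltage-gated channels, since it also holds inward rectifiers, two-pore-domain channels and accessory subunits. RNA was sequenced from whole embryos of Danio rerio at 5 days post fertilization (dpf), with 3 libraries of wild type and 3 of the sas10 mutant. Sas10 is a nucleolar protein that acts in the making of the small ribosomal subunit, and its zebrafish gene is listed under the symbol utp3. The study asked how the loss of Sas10 alters gene expression. The allele, the strain background and the number of embryos per library are not given in the sources used here.

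Channels of this kind set the electrical behaviour of cells. Sodium channel alpha subunits carry the upstroke of the action potential, voltage-gated potassium channels end it, and inward rectifiers and two-pore-domain channels hold the resting potential. Calcium channels couple the voltage to transmitter release in neurons, to light-driven release in photoreceptors, and to contraction in heart and skeletal muscle. Each pore-forming subunit works with accessory subunits that set its amount at the membrane and its gating. Several potassium channels also serve cells that are not excitable, as in kidney and gill-type epithelia, where they recycle potassium for salt transport. Many of these genes exist in zebrafish as pairs of copies from the genome duplication of teleost fish. Where both copies carry 1 shared symbol in the name table, they are told apart here by their Ensembl identifiers.

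The libraries held 17599625 to 19718753 gene counts each. The transcript of the targeted gene, utp3, was at 35.02, 34.7 and 27.2 CPM in the wild type libraries headed wt11, wt12 and wt13, and at 10.7, 11.3 and 10.5 CPM in the mutant libraries headed s1, s2 and s3. CPM is counts per 1000000 on scaled library sizes, and values per library are given in this order of headings throughout. No mutant library came near the wild type range, with a log2 fold change of -1.58 ± 0.13 (SE, as after every log2 fold change below) and an adjusted p of 1.53e-06 by edgeR's quasi-likelihood test. The wild type library wt11 stood apart from its group on the second principal component, and it was also the lowest wild type library for 89 of the 111 channel genes called lower. The same share over all genes called lower is not given here. Only 1 channel gene, cacna1a, lies within 10 Mb of utp3, at a distance of 4.45 Mb on chromosome 11.

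Of the 193 channel genes, 182 had enough counts to be tested, and 111 of these were lower and 14 higher in the mutants at an adjusted p under 0.05 (edgeR, 3 libraries per genotype). Over all 21708 genes tested, 31.8% were lower and 30.5% higher, so the share of channel genes called lower, 61.0%, was above the background and the share called higher, 7.69%, below it. The median log2 fold change, mutant over wild type, was -0.89 for channel genes and -0.04 for all genes tested. Of the tested channel genes, 114 had every mutant library below every wild type library and 14 had every one above, where 34.1% and 33.5% of all genes did. A fall of at least 2-fold was found for 77 channel genes, where 16.4% of all genes fell by that much. A rise of at least 2-fold was found for 6, against 13.2% of all genes. Summed over all channel genes, the level was 1425, 1795 and 1969 CPM in the wild type libraries and 1117, 1074 and 1234 CPM in the mutants, so the groups did not overlap. Without wt11, 119 channel genes were lower and 13 higher. In bulk RNA, fewer cells of a type and less RNA per cell cannot be told apart. The other 11 channel genes had 4 to 86 counts over the 6 libraries and were not tested.

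**Figure D1:**
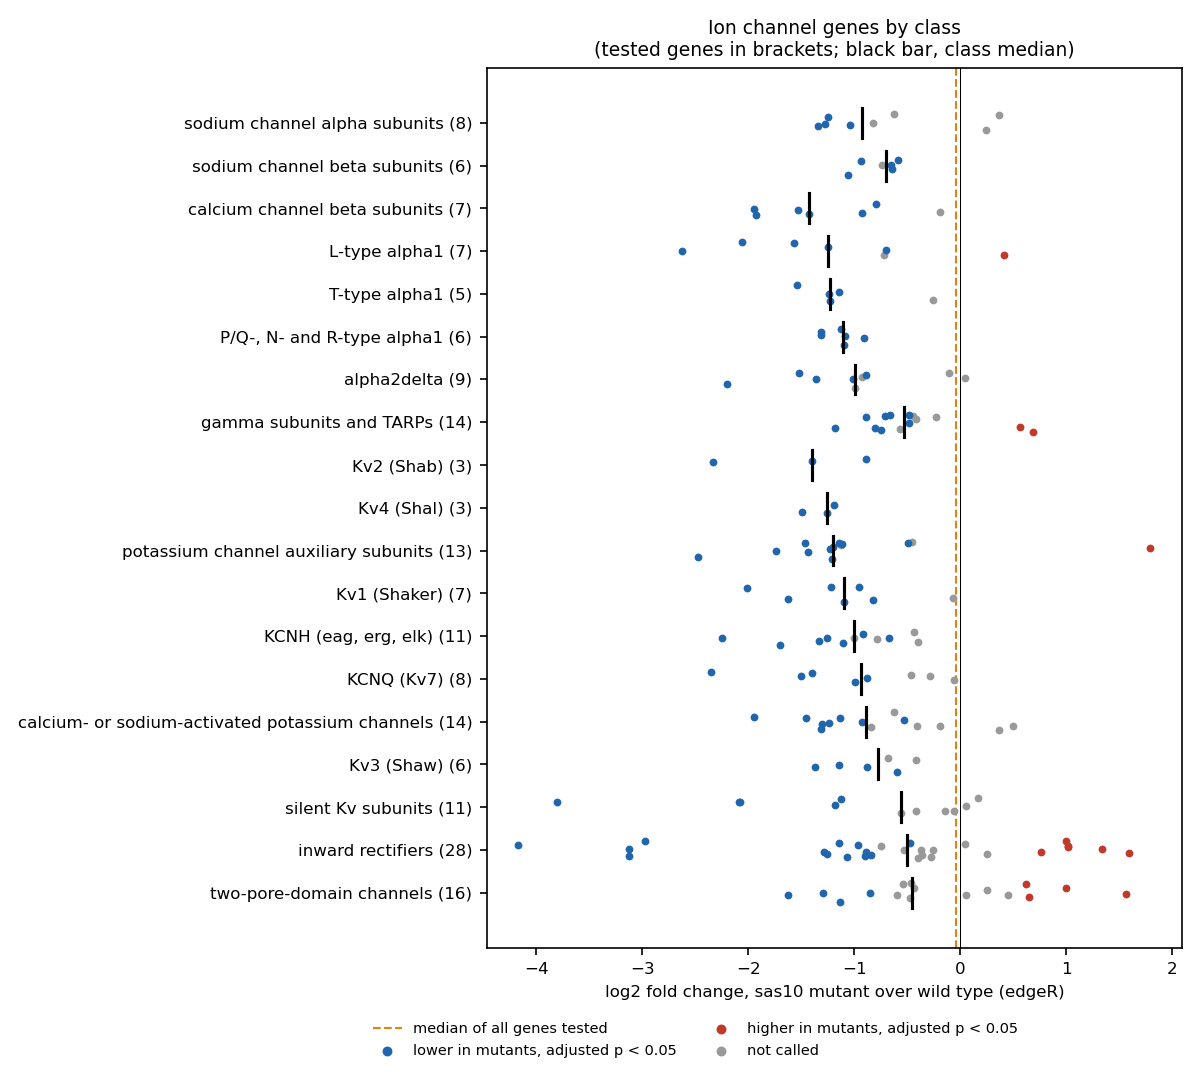
Log2 fold change, mutant over wild type, of each tested channel gene (points, coloured by edgeR call) in 19 classes, with the class median as a black bar and the median of all genes tested, -0.04, as a dashed line. Every class median lies below 0, and the genes called higher stand in 5 classes, most of them in the inward rectifiers (6) and the two-pore-domain channels (4). Those are 21.4% and 25% of the tested genes of these classes, below the 30.5% called higher among all genes tested.

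Most sodium channel genes of neurons were lower, and those of skeletal muscle were not called. Of 14 tested genes, 9 fell and none rose in edgeR's test, with 0 rising at an unadjusted p under 0.05 and 0 by DESeq2 or limma voom. Leaving out library s1 gave 1 rise, scn4ab. The neuronal alpha subunit scn8a (ENSDARG00000005775), the channel of the axon initial segment, had the highest level per length of the alpha subunits. It was at 71.5, 93.9 and 116 CPM in wild type and at 37.7, 34.0 and 46.6 CPM in mutants. No mutant library reached the wild type range, and the log2 fold change was -1.25 ± 0.18 (adjusted p = 0.000127, edgeR). Its other copy (ENSDARG00000018032) fell by 1.04 on the log2 scale. The alpha subunit scn1lab, the zebrafish counterpart of the gene of Dravet syndrome, was at 18.04, 26.8 and 29.7 CPM in wild type and at 9.54, 7.92 and 13.2 CPM in mutants. Here too the groups were apart, with a log2 fold change of -1.28 ± 0.22 (adjusted p = 0.000506, edgeR), and its sister gene scn1laa fell by 1.34.

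The skeletal muscle alpha subunit scn4ab followed another course. It was at 50.7, 54.2 and 48.5 CPM in wild type and at 51.3, 64.1 and 66.0 CPM in mutants. The ranges overlapped, through library s1, and the log2 fold change of 0.24 did not pass the test (adjusted p = 0.0944, edgeR); without s1 it was 0.37 and was called. As a share of the summed level per length of all alpha subunits (TPM, transcripts per 1000000, from counts and gene length), scn4ab made up 27.3%, 21.9% and 17.58% in wild type and 38.7%, 47.1% and 40.8% in mutants. Both scn8a copies together made up 56.6%, 59.6% and 63.4% in wild type and 46.0%, 38.8% and 44.6% in mutants. The muscle gene therefore took a larger part of the alpha subunit message in every mutant library than in any wild type library.

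Of the sodium channel beta subunits, single-pass membrane proteins that tune gating and bind the cell surface, scn2b, scn3b and 1 copy of scn4b fell by 0.94, 0.65 and 0.65 on the log2 scale, which is less than the falls of the neuronal alpha subunits. That difference between alpha and beta subunits was not tested.

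Among calcium channel pores, those of presynaptic terminals fell, 1 of the 2 retinal copies of cacna1f fell, and 1 muscle gene rose. The P/Q-, N- and R-type pores, which open at presynaptic terminals, fell in 6 of 6 tested genes, with a median of -1.11. The P/Q-type gene cacna1aa was at 32.8, 54.0 and 66.5 CPM in wild type and at 24.9, 20.4 and 26.6 CPM in mutants. Every mutant library was below wt11, the lowest wild type library, and the log2 fold change was -1.09 ± 0.23 (adjusted p = 0.00228, edgeR). The N-type copies of cacna1b fell by 1.32 (ENSDARG00000021735) and 1.12 (ENSDARG00000079295). The low-voltage T-type pores, which serve rhythmic firing and pacemaking, fell in 4 of 5 tested genes, and in 2 of them without wt13. Of these, cacna1g was at 12.6, 18.5 and 20.03 CPM in wild type and at 6.66, 6.51 and 8.55 CPM in mutants. Its groups were apart, with a log2 fold change of -1.23 ± 0.19 (adjusted p = 0.00017, edgeR).

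The L-type pores, which carry long-lasting calcium currents, fell in 5 of 7 tested genes and rose in 1. The mammalian counterpart of cacna1f encodes the channel of photoreceptor ribbon synapses, and zebrafish have 2 copies. The copy under the symbol cacna1f was at 6.99, 12.8 and 15.96 CPM in wild type and at 1.95, 1.68 and 2.18 CPM in mutants. This was the largest fall of the calcium channels, with a log2 fold change of -2.62 ± 0.30 (adjusted p = 2.14e-05, edgeR), and the mutant libraries were nearly equal to each other. The other copy, cacna1fa, had a log2 fold change of -0.72 and was not called (adjusted p = 0.160, edgeR). Which copy serves photoreceptors was not tested. The hair cell channel cacna1da, which drives transmitter release onto the auditory and lateral line nerves, was at 11.8, 24.1 and 28.6 CPM in wild type and at 7.48, 6.13 and 8.08 CPM in mutants, a log2 fold change of -1.57 ± 0.29 (adjusted p = 0.00115) by edgeR. The cardiac channel cacna1c was at 13.9, 22.8 and 27.3 CPM in wild type and at 8.67, 6.68 and 11.7 CPM in mutants. Its log2 fold change was -1.25 ± 0.26 (adjusted p = 0.00233, edgeR), and the lowest wild type library was only a little above the highest mutant library. cacna1c is also used in neurons and smooth muscle, so its level in whole embryos is not that of the heart alone.

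The skeletal muscle pore cacna1s, the voltage sensor that starts contraction, has 2 copies, and they were called in opposite directions. The copy ENSDARG00000042552 was at 53.8, 55.5 and 57.2 CPM in wild type and at 79.6, 74.7 and 67.1 CPM in mutants, a log2 fold change of 0.41 ± 0.10 (adjusted p = 0.00475, edgeR). The copy ENSDARG00000029457 was at 14.3, 13.6 and 15.8 CPM in wild type and at 9.91, 7.33 and 9.69 CPM in mutants, a log2 fold change of -0.70 ± 0.15 (adjusted p = 0.00192, edgeR). Neither copy overlapped between genotypes. Together the 2 copies held 22.5% to 37.7% of the summed TPM of all calcium channel pores in wild type and 46.3% to 55.7% in mutants.

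Accessory subunits of calcium channels included genes that fell, genes that were not called and, among the cacng genes, genes that rose. The beta subunits, which bring the pore to the membrane, fell in 6 of 7 tested genes, with a median of -1.43. The most abundant, cacnb4b, a partner of neuronal pores, was at 67.7, 83.9 and 83.6 CPM in wild type and at 41.2, 36.4 and 45.9 CPM in mutants. It fell clear of the wild type range, with a log2 fold change of -0.93 ± 0.13 (adjusted p = 6.34e-05, edgeR). The muscle beta subunit cacnb1 was at 17.8, 16.6 and 17.7 CPM in wild type and at 14.1, 16.3 and 15.1 CPM in mutants, and its difference of -0.19 did not pass the test (adjusted p = 0.181, edgeR); with upper-quartile scaling it was -0.33 and was called.

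The alpha2delta subunits, extracellular proteins that raise surface channel number, fell in 5 of 9 tested genes, and in 3 without s3 or without wt13. The retinal subunit cacna2d4b, needed at photoreceptor terminals in mammals, was at 9.32, 14.2 and 17.7 CPM in wild type and at 4.01, 5.64 and 4.66 CPM in mutants, a log2 fold change of -1.53 ± 0.23 (adjusted p = 0.000175) by edgeR. The subunit of skeletal muscle, cacna2d1a, was at 18.6, 22.5 and 22.6 CPM in wild type and at 19.1, 23.2 and 23.3 CPM in mutants. Those ranges overlapped, and the log2 fold change was 0.04 (adjusted p = 0.801, edgeR).

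The cacng genes hold 2 kinds of protein. Most are TARPs, which carry AMPA-type glutamate receptors at synapses, and 8 of 11 tested TARPs fell, with a median of -0.67. The others, cacng1 and cacng6, belong to the muscle calcium channel, and 2 of the 3 tested rose. A further cacng1 copy (ENSDARG00000052360) was not tested and had 21 counts over the wild type libraries and 2 over the mutants. The cacng1 copy ENSDARG00000008772 was at 51.8, 50.2 and 45.9 CPM in wild type and at 76.7, 76.9 and 84.1 CPM in mutants, above all wild type libraries. Its log2 fold change was 0.69 ± 0.10 (adjusted p = 0.000133) and that of cacng6a 0.56 ± 0.16 (adjusted p = 0.00926), both by edgeR. The TARP cacng8 (ENSDARG00000070626), the most abundant of its kind, was at 28.5, 29.0 and 31.5 CPM in wild type and at 19.1, 20.7 and 23.8 CPM in mutants and fell by 0.49. Of the cacng2 copy ENSDARG00000102376, 53.2% of the exon length overlaps the gene ift27, so its reads cannot be assigned with certainty.

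**Figure D2:**
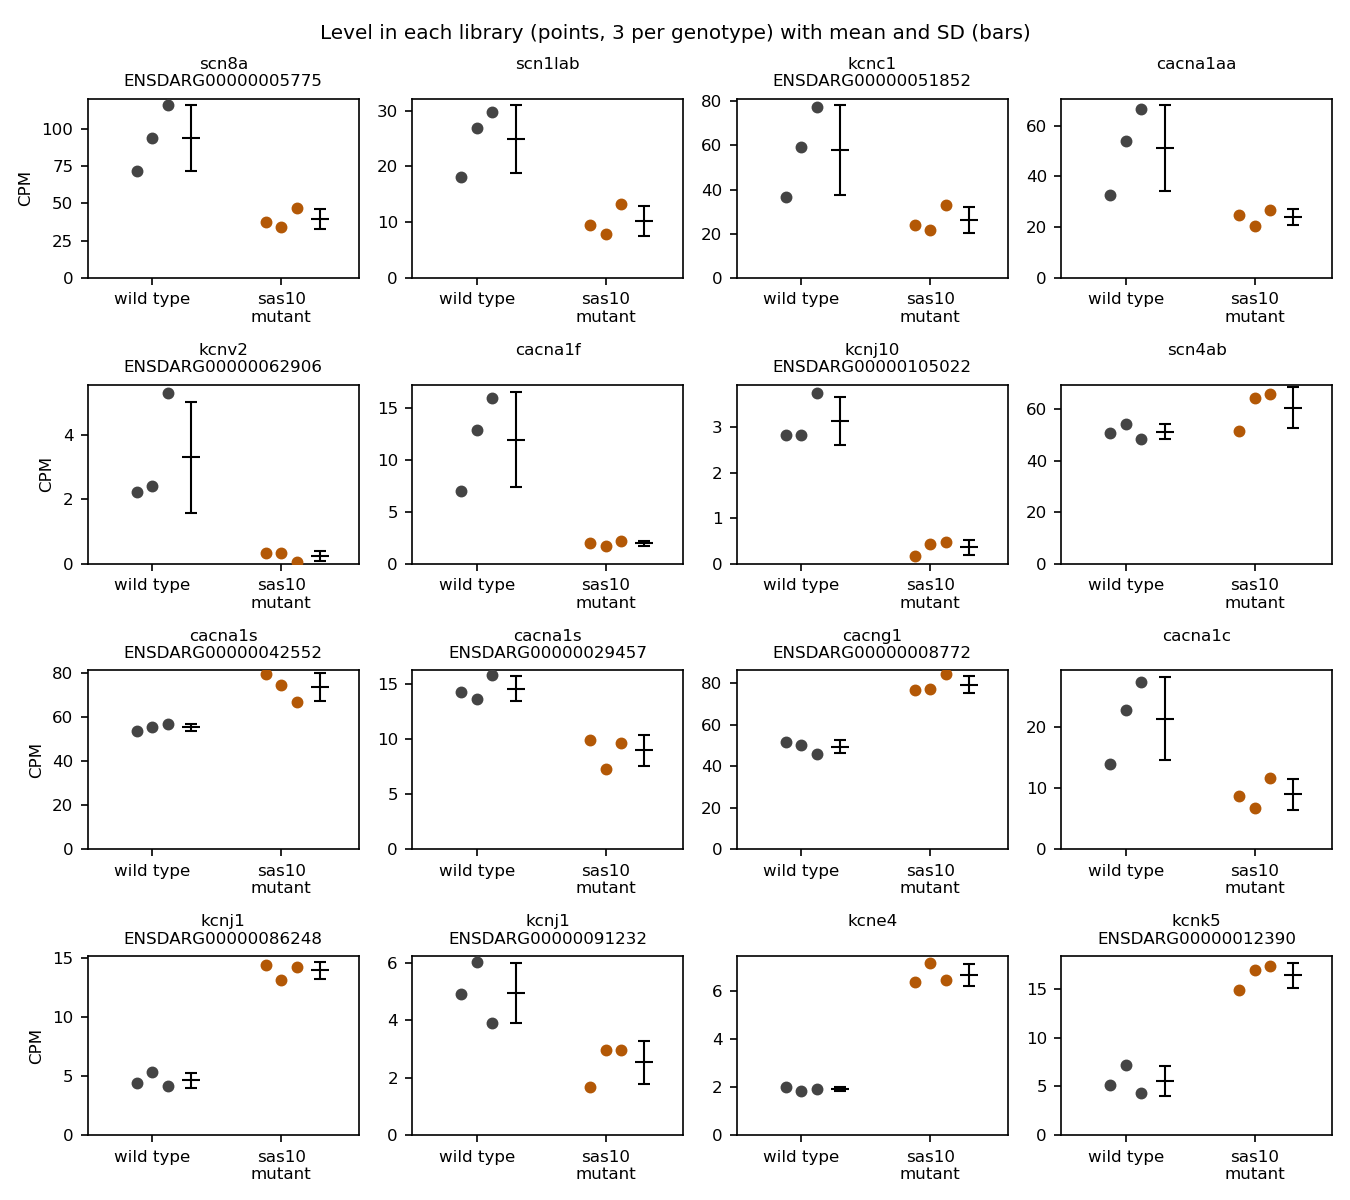
CPM of 16 channel genes in each library, with wild type in grey and mutants in orange, and the mean and SD (n = 3) as a bar beside each group; each panel starts at 0. The neuronal and retinal genes in the first 7 panels are lower in all mutant libraries, scn4ab overlaps, the 2 cacna1s copies go apart, and the panels of kcnj1 (ENSDARG00000086248), kcne4 and kcnk5 have all mutant libraries above the wild type libraries.

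Voltage-gated potassium channels of neurons fell in most subfamilies. Kv1 channels of axons fell in 6 of 7 tested genes, Kv2 channels of cell bodies in 3 of 3, Kv3 channels of fast-spiking cells in 4 of 6, and Kv4 channels of dendrites in 3 of 3. The most abundant of them, the Kv3 gene kcnc1 with the identifier ENSDARG00000051852, was at 36.7, 59.3 and 77.4 CPM in wild type and at 23.7, 21.8 and 33.1 CPM in mutants. The groups did not overlap, the spread of the wild type libraries was wide, and the log2 fold change was -1.14 ± 0.26 (adjusted p = 0.00470, edgeR). The Kv1 gene kcna1 (ENSDARG00000062942) was at 10.4, 10.4 and 14.2 CPM in wild type and at 5.58, 5.37 and 5.39 CPM in mutants. Its mutant libraries were nearly equal, and the log2 fold change was -1.10 ± 0.17 (adjusted p = 0.000164, edgeR). The largest fall of a Kv1 to Kv4 gene was that of kcnb2a, a Kv2 channel, from 11.7, 23.4 and 26.5 CPM in wild type to 3.68, 4.07 and 4.51 CPM in mutants, with a log2 fold change of -2.33 ± 0.28 (adjusted p = 6.5e-05) by edgeR. kcna7, a Kv1 gene of skeletal and heart muscle in mammals, had a log2 fold change of -0.07 and was not called (adjusted p = 0.816, edgeR).

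Partner subunits of these channels fell as well. Of 13 tested auxiliary genes, 10 fell and 1 rose, with a median of -1.20. The calcium-binding Kv4 partner kcnip3a was at 28.9, 29.6 and 32.5 CPM in wild type and at 12.5, 14.1 and 12.9 CPM in mutants, with no overlap and a log2 fold change of -1.21 ± 0.12 (adjusted p = 4.75e-06, edgeR). The Kv1 partner kcnab3 was at 2.05, 2.41 and 3.91 CPM in wild type and at 0.596, 0.163 and 0.725 CPM in mutants, the largest fall among the auxiliary genes at -2.48 ± 0.44 (adjusted p = 0.000464, edgeR). The gene that rose, kcne4, is described after the two-pore-domain channels.

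Channels of the M-current and the ether-a-go-go family fell in part. KCNQ channels, which restrain repetitive firing, fell in 5 of 8 tested genes, and in 3 without s2 or without wt13. The subunit kcnq3 was at 2.44, 4.04 and 3.86 CPM in wild type and at 3.63, 2.605 and 3.73 CPM in mutants. The groups overlapped, with a log2 fold change of -0.06 (adjusted p = 0.861, edgeR). KCNH channels fell in 7 of 11 tested genes, in 4 without s2 or wt12 and in 3 without wt13, with the largest fall in kcnh4 (ENSDARG00000061990) at -2.25 ± 0.27 (adjusted p = 2.6e-05, edgeR). kcnh6a, which carries the repolarizing current of the zebrafish heart, was at 4.33, 7.44 and 6.95 CPM in wild type and at 5.04, 3.31 and 3.42 CPM in mutants. The ranges overlapped between wt11 and s1, the log2 fold change was -0.67 ± 0.25 (adjusted p = 0.0332) by edgeR, and the call was lost without s2, s3, wt12 or wt13.

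Of the channels opened by calcium or sodium, 8 of 14 tested genes fell, and 5 without s1. kcnma1 (ENSDARG00000079840), the large-conductance channel of neurons and hair cells, was at 21.5, 35.8 and 41.4 CPM in wild type and at 14.2, 13.6 and 17.2 CPM in mutants, with no overlap and a log2 fold change of -1.13 ± 0.22 (adjusted p = 0.00113, edgeR). The small-conductance channel kcnn1a was at 24.8, 44.1 and 52.2 CPM in wild type and at 17.1, 11.9 and 19.73 CPM in mutants, a log2 fold change of -1.31 ± 0.28 (adjusted p = 0.00290) by edgeR. The copies of the kcnma1 partner kcnmb2 were not called, with log2 fold changes of 0.36 (ENSDARG00000001712) and 0.50 (ENSDARG00000006568).

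Silent subunits do not form channels alone and join Kv2 subunits. 5 of 11 tested genes of this class fell. kcnv2 is the silent subunit of photoreceptors, and both of its copies fell. The copy ENSDARG00000062906 was at 2.22, 2.41 and 5.30 CPM in wild type and at 0.325, 0.326 and 0.0518 CPM in mutants, a log2 fold change of -3.80 ± 0.54 (adjusted p = 0.000105, edgeR). The copy ENSDARG00000076644 was at 2.44, 2.36 and 3.40 CPM in wild type and at 0.759, 0.705 and 0.466 CPM in mutants, a log2 fold change of -2.08 ± 0.32 (adjusted p = 0.000157, edgeR). The first copy was near the limit of these libraries in the mutants, at 0.0518 CPM in s3.

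The inward rectifiers, which conduct best near the resting potential, held the largest fall, that of kcnj14, and 6 of the 14 rises. Apart from the kcnj1 copies, 12 of 21 tested genes fell and 1 rose. kcnj10 is the potassium channel of glia, including the Müller cells of the retina, and its copy ENSDARG00000105022 was at 2.83, 2.83 and 3.76 CPM in wild type and at 0.163, 0.434 and 0.466 CPM in mutants. The log2 fold change of that copy was -3.12 ± 0.37 (adjusted p = 2.09e-05, edgeR). The other copy (ENSDARG00000090815) was at 3.996, 6.87 and 6.85 CPM in wild type and at 4.88, 3.26 and 4.14 CPM in mutants, and was not called (adjusted p = 0.0780, edgeR), except without wt11 and with upper-quartile scaling. kcnj14 had 98 counts over the wild type libraries and 5 over the mutants, which is a 19.5-fold ratio on scaled library sizes with an exact 95% interval of 8.07 to 61.4 for counting error alone. The retinal and pigment cell channel kcnj13, whose loss of function alters zebrafish stripes, fell by 0.48. The ATP-sensitive pore of muscle, kcnj11l, was at 14.04, 15.05 and 16.1 CPM in wild type and at 5.96, 8.63 and 9.74 CPM in mutants and fell by 0.89, but 36.2% of its exon length overlaps cd59b. The strong rectifiers included genes that fell and genes that were not called. The kcnj2 copy ENSDARG00000104389 was at 1.17, 1.68 and 1.49 CPM in wild type and at 0.163, 0.217 and 0.104 CPM in mutants, a log2 fold change of -3.12 ± 0.44 (adjusted p = 8.81e-05, edgeR), while the other copy (ENSDARG00000019418) had one of -0.26 and was not called. kcnj12a was called lower, with 42 counts over the wild type libraries and 5 over the mutants, an 8.35-fold ratio with an exact interval of 3.31 to 27.0 for counting error alone. Its other copy kcnj12b was at 17.7, 21.0 and 19.4 CPM in wild type and at 19.1, 20.7 and 20.1 CPM in mutants, with overlapping groups and a log2 fold change of 0.04 (adjusted p = 0.765, edgeR).

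kcnj1 encodes the potassium channel that recycles potassium in salt-transporting epithelia, known from the mammalian kidney and from zebrafish skin ionocytes. Of its 7 copies, 5 rose, 1 fell and 1 was not called. The copy ENSDARG00000086248 was at 4.44, 5.29 and 4.12 CPM in wild type and at 14.4, 13.1 and 14.2 CPM in mutants, a log2 fold change of 1.59 ± 0.15 (adjusted p = 4.55e-06, edgeR). The copy ENSDARG00000088484 was at 5.66, 7.39 and 4.22 CPM in wild type and at 15.9, 12.8 and 15.02 CPM in mutants, a log2 fold change of 1.34 ± 0.20 (adjusted p = 0.000114, edgeR). In both, all mutant libraries were above the highest wild type library. The copies ENSDARG00000089060, ENSDARG00000090635 and ENSDARG00000090866 rose by 1.02, 1.00 and 0.77 on the log2 scale. The copy that fell, ENSDARG00000091232, was at 4.94, 6.03 and 3.91 CPM in wild type and at 1.68, 2.98 and 2.95 CPM in mutants, a log2 fold change of -0.96 ± 0.26 (adjusted p = 0.00737, edgeR).

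6 of the 7 kcnj1 copies lie in 1 block on chromosome 18, from 48491007 to 48558420 in the GRCz11 build. Some of their exons overlap, and reads of near-identical copies cannot be assigned with certainty. The summed level does not depend on which copy a read was given to, but reads left uncounted are missing from it too. Summed over all 7 copies, it was 35.5, 39.6 and 27.2 CPM in wild type and 71.5, 59.2 and 65.2 CPM in mutants. The kcnj1 copies made up 5.55% to 9.25% of the summed TPM of all potassium channel genes in wild type and 20.2% to 23.7% in mutants. The 5 rises and the 1 fall were called under each scaling, filter and test tried and without each library, while with a 2-fold threshold 3 rises and 0 falls were called.

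Two-pore-domain channels, the leak channels of most cells, had 4 of 16 tested genes higher and 4 lower. Each is 25% of the class, below the 30.5% higher and 31.8% lower among all genes tested. The rises numbered 2 without s1 or wt12, and the falls 2 without s2 or s3. The kcnk5 copy ENSDARG00000012390, of which the mammalian gene acts in kidney tubules, was at 5.11, 7.23 and 4.27 CPM in wild type and at 14.9, 16.9 and 17.3 CPM in mutants. The mutant libraries were far above the wild type libraries, with a log2 fold change of 1.56 ± 0.19 (adjusted p = 2.42e-05, edgeR). Its other copy (ENSDARG00000023587) had a log2 fold change of 0.26 and was not called (adjusted p = 0.218, edgeR). kcnk2, a stretch-sensitive channel, was at 2.44, 4.46 and 2.32 CPM in wild type and at 0.867, 0.923 and 1.19 CPM in mutants, the largest fall of the class at -1.62 ± 0.33 (adjusted p = 0.00121, edgeR).

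The largest rise of all channel genes was that of kcne4, a small subunit that lowers the current of its partners. It was at 2.00, 1.83 and 1.91 CPM in wild type and at 6.34, 7.16 and 6.42 CPM in mutants. Both groups were tight and far apart, with a log2 fold change of 1.79 ± 0.19 (adjusted p = 1.01e-05) by edgeR. kcnj8, the ATP-sensitive pore of vessel walls, was at 0.999, 0.996 and 0.824 CPM in wild type and at 1.90, 1.63 and 2.18 CPM in mutants, a log2 fold change of 1.01 ± 0.29 (adjusted p = 0.0101, edgeR).

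**Figure D3:**
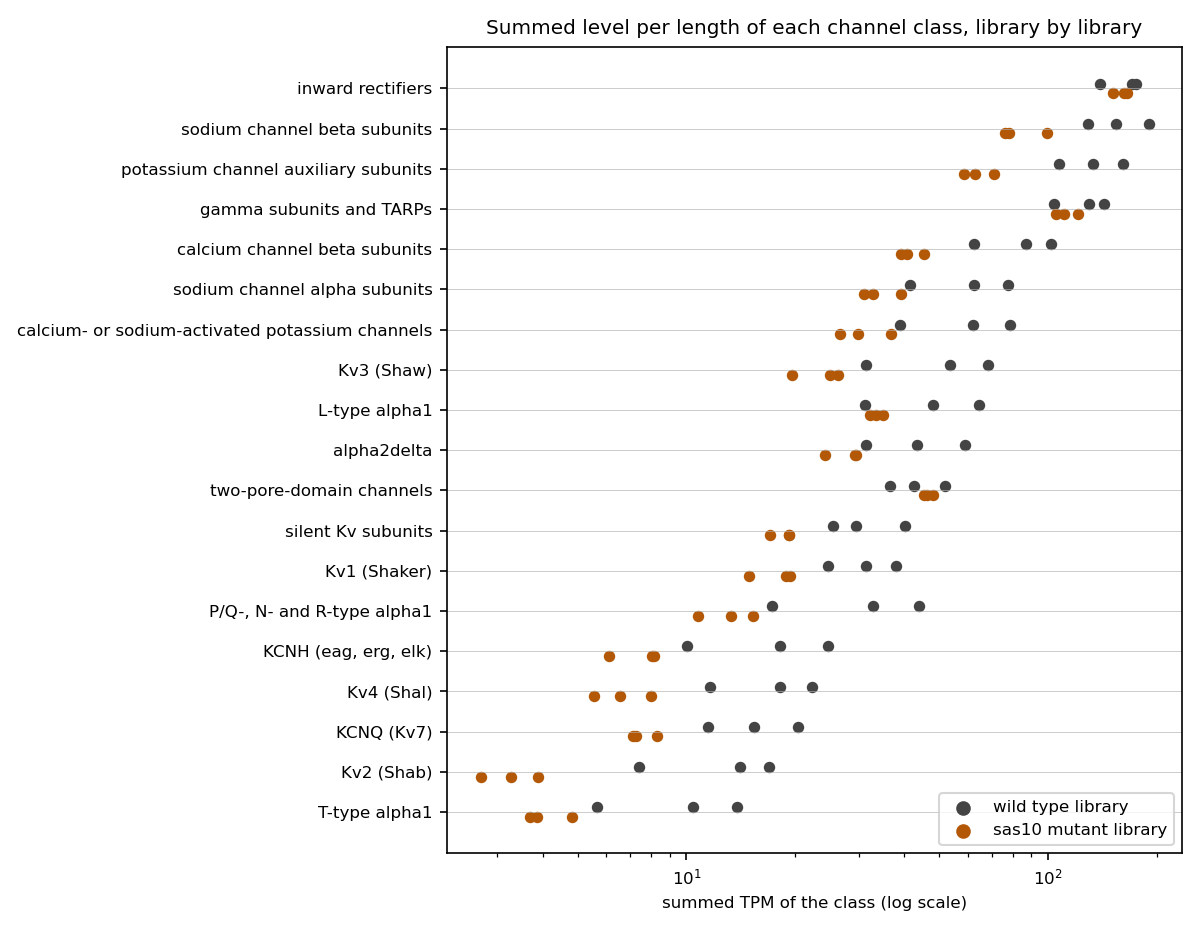
Summed TPM of the 19 channel classes on a log axis, with 1 point per library (wild type grey, mutant orange), ordered by the wild type mean. The groups are apart in most classes and overlap in the inward rectifiers, the gamma subunits and TARPs, the L-type pores and the two-pore-domain channels, the classes that hold genes called higher besides the auxiliary subunits.

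By tissue use, more channel genes fell than rose in the neuron, retina, heart, hair cell and skeletal muscle lists. More rose than fell in the epithelial list and in the vessel wall list of 3 genes, and both lists hold kcne4. Over all genes tested, 31.8% fell and 30.5% rose, and the share of the skeletal muscle list that fell was not above that. Of 80 tested channel genes of neurons, 66 fell and 0 rose in edgeR's test, with 0 rising at an unadjusted p under 0.05, by DESeq2 or by limma voom. Their median was -1.06. In the summed level, the neuronal channel genes were at 775, 1021 and 1158 CPM in wild type and at 486, 439 and 570 CPM in mutants. Markers of neurons moved the same way, 11 of 14 tested lower with a median of -0.81, and their summed level ran from 1931 to 2686 CPM in wild type and from 1115 to 1378 CPM in mutants, with no marker at 0. The part of neuron number in the channel result was not tested.

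Of 16 tested retinal channel genes, 11 fell in edgeR's test, with a median of -1.24. By edgeR, DESeq2 and limma voom alike and at an unadjusted p under 0.05, 0 rose. Photoreceptor markers fell in 13 of 15 tested genes with 1 higher and a median of -2.66, and their summed level was 3065 to 4796 CPM in wild type against 458 to 589 CPM in mutants. The red opsin opn1lw1 was near 0 in all libraries of both genotypes. The hair cell channel genes fell in 7 of 12 tested genes, with a median of -0.96. Of the 12, 3 are also on the heart list, 2 on the muscle list and 1 on the neuron list, so their level is not that of hair cells alone. Their summed level was 67.2, 101 and 119 CPM in wild type and 49.7, 48.2 and 55.6 CPM in mutants. Hair cell markers fell in 7 of 10 tested genes and 1 rose, with a summed level of 360, 293 and 267 CPM in wild type and 206 to 216 CPM in mutants. In wild type, wt11 was thus lowest for the channel genes and highest for the markers. For retina and hair cells too, the part of cell number in the channel values was not tested.

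For the heart, the channel genes and the markers of the tissue gave different counts. Of 18 tested channel genes of the heart, 13 fell in edgeR's test, with a median of -1.11. By edgeR, DESeq2 and limma voom alike and at an unadjusted p under 0.05, 0 rose. Among the 13, the kcnq1.1 call was lost with DESeq2 and without s1, s2, wt11, wt12 or wt13. The kcnh6a call was lost without s2, s3, wt12 or wt13. Of 14 tested heart markers, 4 rose and 3 fell, with a median of 0.16. These shares, 28.6% and 21.4%, were below the 30.5% higher and 31.8% lower among all genes tested. The summed level of these markers was 183 to 210 CPM in wild type and 193 to 212 CPM in mutants, so it overlapped, and the myosin light chain gene myl7 was at 22.5, 19.5 and 18.9 CPM in wild type and 17.8, 17.8 and 16.2 CPM in mutants. The summed channel level of the heart list was 93.4, 127 and 140 CPM in wild type and 68.3, 64.5 and 76.2 CPM in mutants. Heart-use genes such as cacna1c, cacna1g and kcnd3 are also expressed in neurons, and from whole embryos the 2 sources cannot be told apart.

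Channel genes of skeletal muscle were called in both directions. Of 17 tested channel genes of muscle, 3 rose and 5 fell, with a median of -0.26. The summed level was 282, 283 and 279 CPM in wild type and 305, 326 and 327 CPM in mutants, higher in every mutant library. Per length the groups overlapped, with a summed level of 155 to 187 TPM in wild type and 154 to 177 TPM in mutants. Muscle markers rose in 5 and fell in 2 of 12 tested genes, with a median of 0.15 and a summed level of 29680 to 38436 CPM in wild type and 41468 to 42660 CPM in mutants. With upper-quartile scaling, 8 muscle-use genes were lower and 3 higher, and at least 2-fold changes numbered 2 lower.

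Channel genes of transporting epithelia were the list with most rises, 9 higher and 5 lower of 20 tested, with a median of 0.25. Of the 9, 5 were kcnj1 copies, and the others were kcne4, kcnk5 (ENSDARG00000012390), kcnk6 and kcnk1a. The largest fall of the list was that of kcnj10 (ENSDARG00000105022). Both kcnj10 copies are on the retina list too. The kcnk1a call was lost without s1, s3, wt12 or wt13 and with upper-quartile scaling. The summed level was 78.4, 87.7 and 73.5 CPM in wild type and 130, 120 and 124 CPM in mutants. Ionocyte markers were called in 1 of 8 tested genes, the sodium-chloride cotransporter slc12a10.2, which was at 37.4, 51.2 and 40.0 CPM in wild type and 121, 108 and 99.1 CPM in mutants. The other 7 were not called, among them foxi3a and foxi3b, the factors that specify ionocytes, with log2 fold changes of -0.04 and 0.14. The summed ionocyte level was 382 to 690 CPM in wild type and 512 to 602 CPM in mutants, which overlap. The 690 CPM is that of wt11, where trpv6 alone was at 275 CPM, against 62.9 and 47.3 CPM in wt12 and wt13. In mutants trpv6 was at 177, 104 and 98.8 CPM. The overlap of the sums thus leans on 1 gene in 1 library.

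The vessel wall list was short. Of its 3 tested channel genes, kcne4 and kcnj8 rose and kcnj11, with a log2 fold change of -0.39, was not called. kcne4 is also on the epithelial list and kcnj11 on the skeletal muscle list, so only kcnj8 is on this list alone. Markers of mural cells were called higher in 1 and lower in 2 of 3 tested genes, and those of endothelium higher in 1 of 3. For the glial channel kcnj10, markers of glia rose in 4 and fell in 2 of 6 tested genes, and those of bipolar and Müller cells rose in 2 and fell in 5 of 7. Markers of oligodendrocytes and Schwann cells fell in 5 of 7 tested genes, and those of pigment epithelium and melanophores in 5 of 7. Islet markers rose in 2 and fell in 1 of 3 tested genes. For all these counts, the background over all genes tested is 30.5% higher and 31.8% lower. The part of these cells in the channel values was not tested.

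**Figure D4:**
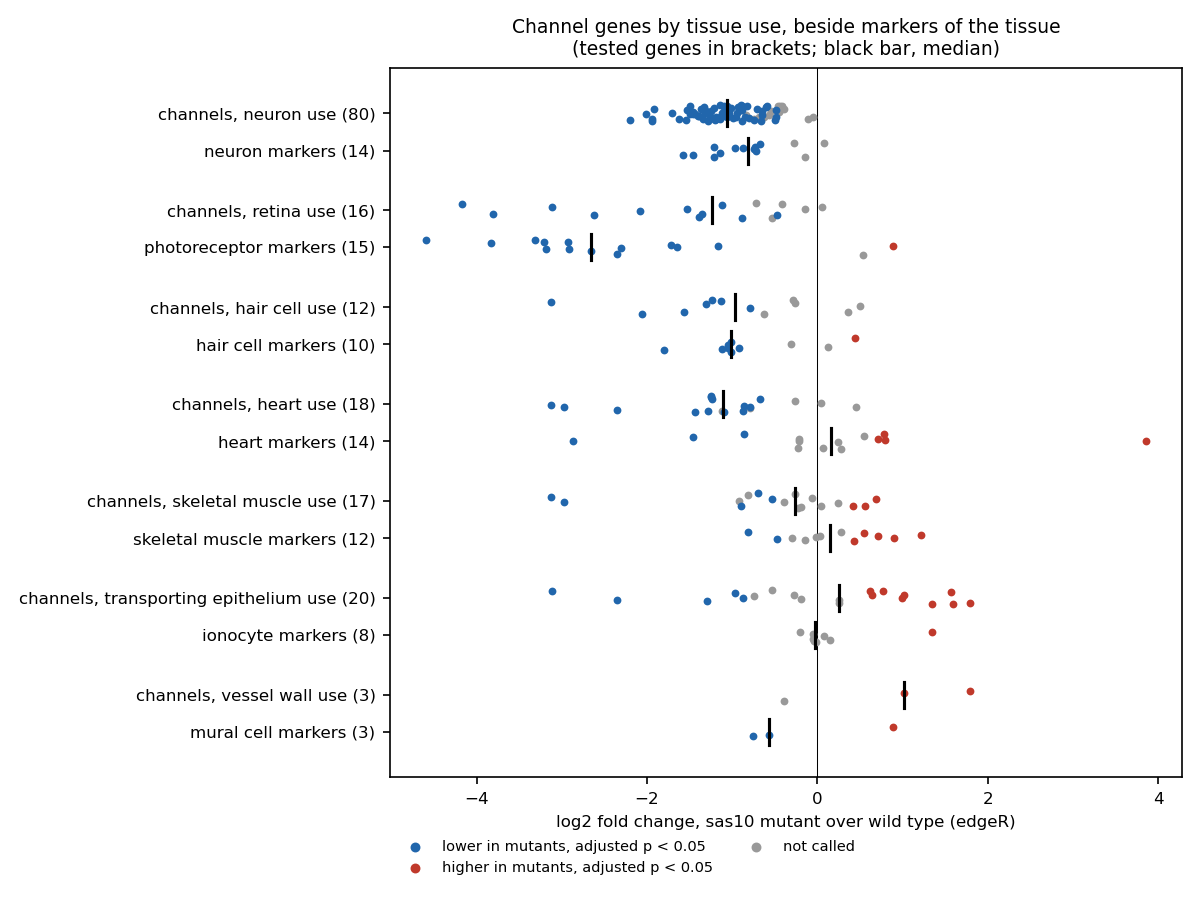
Log2 fold change of channel genes grouped by the tissue that uses them, each list above the markers of that tissue (points coloured by edgeR call, black bar the median, number of tested genes in brackets). The medians of the neuron, retina and hair cell lists lie left of 0 with those of their markers. The median of the heart channels lies left of 0 while heart markers centre at 0.16. The epithelial channels reach from -3.12 to 1.79 beside ionocyte markers centred at -0.03. The value of -3.12 is that of kcnj10 (ENSDARG00000105022), which is also on the retina list.

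Duplicated channel genes did not always move together. Of 57 pairs of copies in which both were tested, 30 had both copies lower and 19 had exactly 1 copy lower. In 2 of those 19, the other copy was higher. The same counts over all pairs of copies are not given here. For 23 pairs, 40.4%, the ratio of the copies did not overlap between genotypes. That share was below the 62% found for 2887 pairs of copies among all genes. The exact two-sided permutation test of the ratio has a smallest p of 0.1 with 3 libraries against 3, and the smallest value adjusted over pairs was 0.248, so no pair could pass.

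The pairs that went furthest apart among expressed genes were kcnj10, cacna2d3, kcnk1 and cacna1f. For cacna2d3, the copy ENSDARG00000106018 was at 3.55, 3.62 and 5.15 CPM in wild type and at 1.25, 0.597 and 0.829 CPM in mutants, and the other copy (ENSDARG00000078760) was at 11.4, 12.3 and 14.1 CPM and 11.4, 11.7 and 11.96 CPM. The first had a log2 fold change of -2.20 ± 0.31 and the second was not called, so the share of the second in their summed counts went from 75.6% ± 2.1 (SD, n = 3) to 92.9% ± 2.6. For kcnk1, the copy under that symbol was at 2.83, 4.77 and 6.03 CPM in wild type and at 2.11, 1.79 and 1.66 CPM in mutants, while kcnk1a was at 4.44, 2.83 and 4.02 CPM and 7.42, 4.67 and 5.28 CPM. kcnk1 fell by 1.29 and kcnk1a rose by 0.62, the 2 in opposite directions. The call of kcnk1a was lost without s1, s3, wt12 or wt13 and with upper-quartile scaling. For cacna1f, the share of cacna1f in the summed counts with cacna1fa went from 88.7% ± 2.3 to 66.8% ± 2.9. Per length, as TPM, its mean share went from 67.4% to 34.5%, so cacna1fa had the higher level in mutants. cacna1fa alone was not called at -0.72 (adjusted p = 0.160, edgeR), but was called without wt11 at -1.07. Other pairs fell by about the same amount, as the scn8a, kcnma1 and cacna1b copies did.

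**Figure D5:**
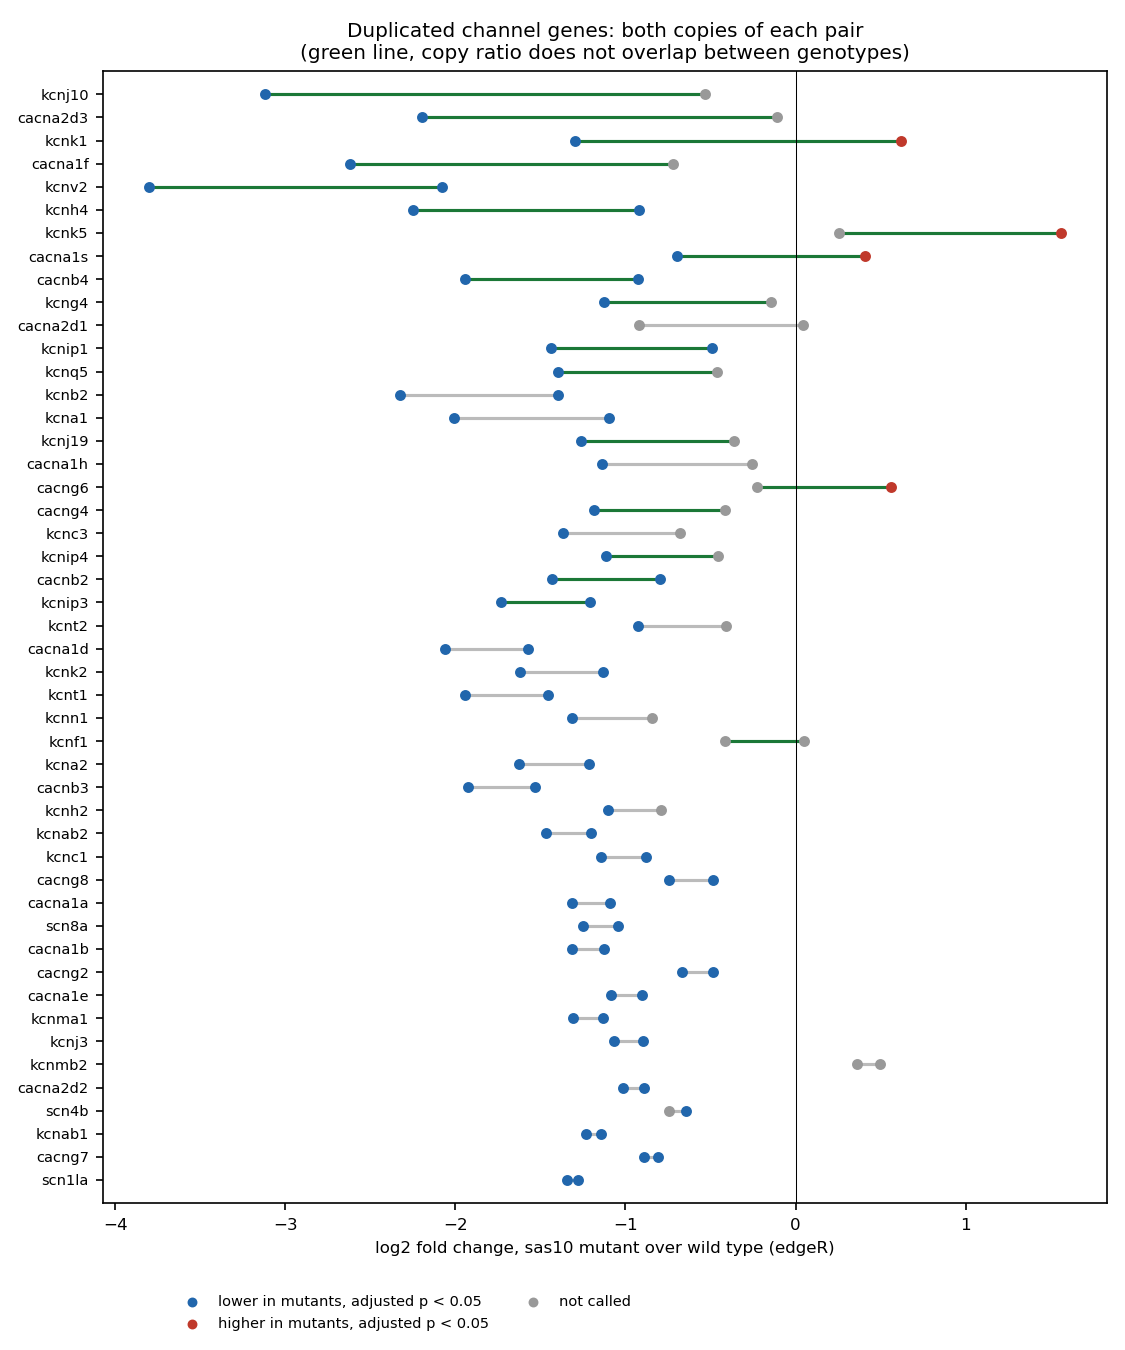
Log2 fold change of both copies of 48 channel gene pairs with a mean of at least 1 CPM each, joined by a line that is green where the ratio of the copies does not overlap between genotypes (19 pairs). Most pairs lie left of 0 on both ends, and kcnj10, cacna2d3, kcnk1 and cacna1f lie furthest apart. The kcnk1 and cacna1s pairs have 1 copy called lower and 1 called higher, and the kcnk1a call did not hold under every setting.

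Genes that work with these channels but lie outside the symbol rule were read by their role. For comparison, 31.8% of all genes tested fell and 30.5% rose. Of 25 tested genes of the axon initial segment and node, where sodium and potassium channels are anchored, 22 fell in edgeR's test. By edgeR, DESeq2 and limma voom alike and at an unadjusted p under 0.05, 0 of these genes rose. The scaffold nfasc was at 57.5, 79.2 and 96.9 CPM in wild type and at 34.9, 33.1 and 42.0 CPM in mutants, a log2 fold change of -1.09 ± 0.18 (adjusted p = 0.000318, edgeR). Of 19 tested genes of presynaptic calcium sensing, 18 fell. The photoreceptor calcium sensor cabp4 had a copy (ENSDARG00000105631) at 3.27, 8.54 and 12.9 CPM in wild type and at 0.217, 0.271 and 0.518 CPM in mutants, a log2 fold change of -4.58 ± 0.58 (adjusted p = 0.000108, edgeR). Of 17 tested genes of excitation-contraction coupling, 6 rose and 7 fell. These are 35.3% and 41.2% of the list. The adaptor stac3, which couples cacna1s to the ryanodine receptor of muscle, was at 48.6, 52.0 and 47.5 CPM in wild type and at 65.9, 73.2 and 73.0 CPM in mutants and rose by 0.52. Of 7 tested pacemaker and leak channel genes, 3 fell, with 2 without s1, s2, wt12 or wt13 and 5 without s3 or wt11. Of 10 tested genes of sulfonylurea receptors and the sodium pump, 7 fell and 1 rose.

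The falls were more frequent among channel genes that span more of the genome. Among the 61 tested channel genes with the shortest span, 29 fell, and among the 61 with the longest span 45 fell. Over all genes in the same span ranges, 28.1% fell in the short range and 45.1% in the long range. The part of gene span in the channel result was not tested.

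The authors' deposited table lists 8574 genes, with adjusted p-values up to 0.0494 and log2 fold changes of at least 0.585 in size. It names 64 channel genes, 57 lower and 7 higher in the authors' deposited table, and 63 of these were called here in the same direction. The other, kcnn2, had an adjusted p of 0.0508 here by edgeR. A further 62 channel genes called here are not in the authors' deposited table, 6 of them with changes smaller than the smallest it lists. Among those not listed are kcne4 and kcnj8, called higher here, and cacna1f and kcnj14, called lower here. The reason for their absence was not tested.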

How the data were processed

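RNA was sequenced from whole zebrafish embryos at 5 dpf, 3 libraries of wild type and 3 of the sas10 mutant, as polyA RNA per the labels. The build GRCz11 and the tools HISAT2 2.2.1, DESeq2 1.40.2, Salmon 0.12, fastp 0.20.0 and featureCounts 2.0.1 are named in the submitters' processing notes. The deposited gene table holds raw counts. Per the file headers, featureCounts took read pairs over the exons of each gene in Ensembl's release 105, with no strand option and no option to count reads of overlapping genes or with several alignments. Reads of overlapping genes and of near-identical copies are therefore uncertain. The authors' deposited comparison table holds log2 fold changes, their errors, and raw and adjusted p-values, without values of single libraries.

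The column headings give the genotype of each library and not its replicate number. Between replicate columns, chi-square over its degrees of freedom was 7.29 to 30.5, above sampling noise, and all were counted as separate samples. The spread that p-values measure is that of these 6 samples. Symbols matched 29201 of 32520 identifiers. 73 of the 193 channel identifiers share 34 symbols, and listed names of single copies were taken as all copies under the shared symbol, as chosen once the name table was known.

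Counts were fitted on the whole table with edgeR 4.0.16 in R 4.3.3 (TMM scaling, default expression filter, robust quasi-likelihood test), with Benjamini-Hochberg adjustment over 21708 tested genes and calls at an adjusted p under 0.05. The biological coefficient of variation was 0.146. Standard errors come from the quasi-likelihood statistic. The fit was tested on simulated counts, with the coefficient of variation above for every gene and changes only in genes above 1 CPM. It called 28.6% of the 1.5-fold, 90.4% of the 2-fold and 100% of the 4-fold changes, and 6 of its 159 calls were false. Most 1.5-fold changes were thus missed, so a gene not called here may still differ. Levels of different genes were compared as TPM computed here from counts and gene length. Intervals cover counting error only. The authors' table of ribosomal RNA precursor regions was not used. Each library was left out in turn, and the fit was repeated with DESeq2 1.42.0, with voom of limma 3.58.1, with a 2-fold threshold, with looser and stricter filters, and with upper-quartile or RLE scaling.

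Channel genes, classes, tissue-use lists, partner lists and markers were chosen with earlier results of these data known. The lists are described and not tested. Named genes were the key genes of each tissue list, the most abundant gene and the largest called change of each direction in each class, the 5 largest changes in each direction, and the 4 pairs whose copies differ most, the last 3 kinds with a mean of at least 1 CPM. kcnj14, kcnj12a, kcnj12b, the kcnj2 copies, kcnk6, cacng8, cacng2, kcnmb2, scn2b, scn3b and partner genes given as examples were chosen after their values were seen. Some genes that this rule names are not reported here, and 2 pairs are left out of the plot of pairs. Sequences of the genes were not used here.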

Additional observations from a re-analysis of the deposited data

How the results depend on the processing

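Counts of channel genes kept the same side under RLE and upper-quartile scaling, both filters, DESeq2 and limma voom, with 105 to 124 lower and 12 to 14 higher, against 111 and 14. Upper-quartile scaling moved the median of all genes by -0.13 (log2). With each library left out in turn, 91 (without wt13) to 119 (without wt11) channel genes were lower and 12 to 14 higher, and the median was -1.01 to -0.77. Potassium channels had 55 to 73 lower and 9 to 11 higher, calcium channels 27 to 36 lower and 3 higher, and sodium channels 8 to 10 lower and 0 to 1 higher, the last without s1. Adding a 2-fold threshold left 2865 genes higher and 3564 lower among all genes, 6 channel genes higher, 6 potassium and 0 calcium channel genes higher, and 22 calcium and 5 sodium channel genes lower; these fall because the rule is stricter. Limiting pairs to symbols that differ only in a final letter left 5 non-overlapping pairs of 12. Of 1048 values of named genes under alternatives, 991 kept their call, 41 lost it, 5 gained it and 11 changed sign. The sign changes were in genes not called. cacna2d1a was -0.091 with upper-quartile scaling, and with each library left out it ran from -0.034 (without wt11) to 0.15. The same ranges were -0.19 to 0.14 for kcna7, -0.71 to 0.038 for kcnn4, -0.24 to 0.10 for kcnq3 and -0.20 to 0.084 for kcns3 (ENSDARG00000006891). The cause was not tested. No paired analysis was possible because the column headings do not give the replicate numbers of the labels. Genes with few counts limit the rest: untested channel genes had at most 86 counts in all.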
